A study of Homo sapiens with 6 samples.

Results

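The cytosolic ribosome is built from ribosomal RNA and a family of proteins whose genes carry the prefix RPL for the large subunit and RPS for the small subunit. This account follows the messages of that family in HuCCT-1 cells, a long-established line from a human bile duct cancer (cholangiocarcinoma). Members were the rows of the gene count table whose Ensembl identifier maps to a protein-coding gene named RPL or RPS with a number, with an end A, X, L or L1 allowed. RPLP0, RPLP1, RPLP2 and RPSA were added, and RPS6K kinases and pseudogenes were left out. The rule found 84 of 60605 genes, 52 of the large and 32 of the small subunit. It used names only and no measured value.

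The study compared 3 libraries of polyadenylated RNA from HuCCT-1 cells given 6 nM JNJ-64619178 with 3 from cells given an equal volume of DMSO, both for 4 days. JNJ-64619178 inhibits PRMT5, an enzyme that puts symmetric methyl marks on arginine. All 6 libraries came from 1 line, and the labels do not say whether replicates were separate cultures, so p-values measure the spread between these libraries, which may be technical. Levels are CPM, counts scaled to a common library total with TMM factors, and a fold change is JNJ over DMSO unless stated otherwise.

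Ribosomal protein genes are known for high, coordinated expression and for a TOP motif, a run of C and T letters that starts at the first transcribed base with a C. Through it the growth kinase complex mTORC1 and the RNA-binding protein LARP1 control how such messages are translated. PRMT5 is known to methylate the small-subunit protein RPS10. PRMT3, another arginine methyltransferase, is known for its substrate RPS2. Several members have paralogues, such as RPL22L1 beside RPL22, which can take the place of the parent in the ribosome.

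Start sites are shown for some members that moved, with and without the TOP run, and for some paralogues and parents with a RefSeq entry. They are given because the TOP run is the sequence that this family shares and the naming rule did not use. Each line gives 10 bases before and 20 bases from the RefSeq start (build GRCh38.p14), 5′ to 3′ on the gene's strand, and capitals mark a C at the start followed by at least 4 C or T.
RPL26, chr17:8383174-8383203, minus strand: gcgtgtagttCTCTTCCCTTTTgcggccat
RPL26L1, chr5:172958719-172958748, plus strand: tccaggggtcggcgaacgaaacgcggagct
RPL22, chr1:6199576-6199605, minus strand: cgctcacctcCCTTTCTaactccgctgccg
RPL22L1, chr3:170870176-170870205, minus strand: ccgtagcttcCTCTCTgctctcgcggccga
RPL7L1, chr6:42879606-42879635, plus strand: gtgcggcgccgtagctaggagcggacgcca
RPS27, chr1:153990752-153990781, plus strand: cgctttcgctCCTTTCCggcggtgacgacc
RPS27L, chr15:63157458-63157487, minus strand: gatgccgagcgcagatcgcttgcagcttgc
RPS14, chr5:150449720-150449749, minus strand: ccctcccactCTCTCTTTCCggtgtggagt
RPS15, chr19:1438386-1438415, plus strand: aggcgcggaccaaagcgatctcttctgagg
RPL11, chr1:23691769-23691798, plus strand: cctggcccataaggccctcggccggaagct
RPS4X, chrX:72277229-72277258, minus strand: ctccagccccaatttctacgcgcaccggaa
RPL15, chr3:23916535-23916564, plus strand: tggggcctgctggaggagcttcacgcagtc

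RefSeq promoter entries matched 67 of the 84 members. A TOP run stood at the annotated start in 43 of these 67 (64.2%), against 4.6% of 15843 promoters of protein-coding genes. The run was 5 to 19 bases long, with a median of 8. Of the 5 paralogue members with an entry, 1 had it, RPL22L1. The paralogues RPL26L1, RPL7L1, RPS27L and RPL10L did not. Among parents, RPL26, RPL22, RPS27, RPL36A and RPL39 carried the run, and RPL3 and RPL10 did not. RPS15, RPL11 and RPS4X, which rose, and RPL15, which fell, had none at the annotated start, which can lie some bases away from the start used in these cells. In the window from 250 bases before to 50 after the start, the ETS motif CCGGAAG (either strand) stood in 34.3% of member promoters and in 14.2% of all. The YY1 motif AAGATGGC (either strand) stood in 10.4% and 3.9%. The 43 members with the run and the 24 without it had median log2 fold changes of 0.05 in both cases. With edgeR's quasi-likelihood test at an adjusted p under 0.05, 20.0% of all genes tested were called higher and 17.1% lower. Of the members with the run, 8 were called higher and 1 lower. Of those without it, 23 could be tested, and 3 were called higher and 1 lower. Among the 17 members with no entry, 15 could be tested, and 6 were called higher and 1 lower.

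Gene counts per library ranged from 23931991 to 30691914. All 8 biliary epithelium markers passed the count filter, with KRT7 at 3646 CPM in DMSO, and the summed level of the 8 was 5704 to 5954 CPM with DMSO and 4545 to 4860 CPM with JNJ. Of these 8, 5 were called lower and 1 higher, against 17.1% and 20.0% of all genes. Among markers of other cell types, 1 of 5 passed the count filter for hepatocytes (SERPINA1), 1 of 5 for fibroblasts (LUM), 1 of 5 for leukocytes (CD14) and 1 of 4 for endothelium (VWF). Summed levels with DMSO and JNJ were 336 to 351 and 353 to 389 CPM for hepatocyte markers, nearly all of it SERPINA1. They were 0.546 to 0.905 and 0.735 to 1.67 CPM for fibroblast, 2.14 to 2.95 and 3.38 to 3.73 CPM for leukocyte, and 0.642 to 1.05 and 0.89 to 1.33 CPM for endothelial markers. CD14 was called higher (edgeR adjusted p = 0.0266). MS4A1 was at 0 in every library, and PTPRC, CD3E and COL3A1 were at 0 in every DMSO library. Their part in the results was not tested.

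Summed over the 84 genes, the share of counts overlapped between the groups. The share was 4.55%, 4.56% and 5.03% in the DMSO libraries and 4.81%, 5.11% and 4.80% in the JNJ libraries. DMSO replicate 3 lay above 2 of the 3 JNJ libraries. The means were 4.72% ± 0.277 and 4.91% ± 0.178 (SD, n = 3 each), and the difference of 0.19 percentage points was not beyond the replicate spread (exact two-sided permutation p = 0.3, where 0.1 is the smallest that 3 against 3 allows). Counting error alone was at most 0.00856 percentage points either way (95% Wilson interval). A share of counts is relative, so it shows neither the amount of RNA per cell nor the number of cells.

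The highest member share in each group was that of DMSO replicate 3 and of JNJ replicate 2. DMSO replicate 3 was the highest DMSO library for 75 of 81 tested members, and JNJ replicate 2 was the highest JNJ library for 64. Mitochondrially encoded genes took 20.3%, 20.6% and 17.8% of the counts with DMSO and 16.8%, 17.0% and 18.9% with JNJ, so DMSO replicate 3 was the lowest of its group there. Outside mitochondrial genes the member share was 5.86% ± 0.231 with DMSO and 5.95% ± 0.190 with JNJ (SD, n = 3 each). The part of the mitochondrial share in the member levels was not tested.

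**Figure D1:**
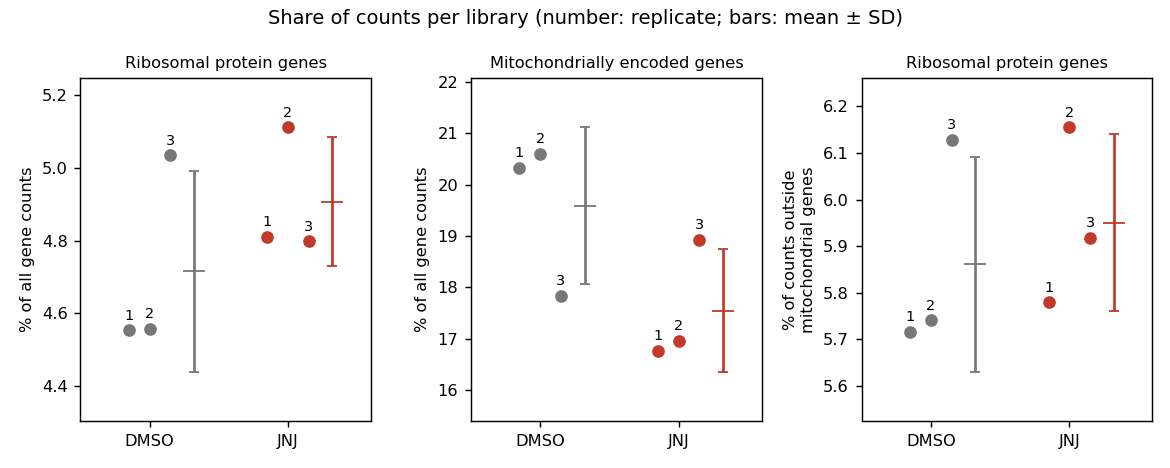
Share of counts in each library, in percent of all gene counts (left and middle panels) or of counts outside mitochondrial genes (right panel), with each point a library numbered by replicate and bars showing mean ± SD. The vertical axes do not start at 0. The groups overlap in all 3 panels, and DMSO replicate 3 sits apart from the other 2 DMSO libraries.

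Gene by gene, with TMM scaling, small rises were common and falls were few. Of the 84 members, 81 passed the filter on low counts. With edgeR's quasi-likelihood test, 17 of these 81 (21.0%) were called higher at an adjusted p under 0.05, against 20.0% of all 17371 genes tested, and 3 (3.70%) were called lower, against 17.1%. The share called higher is close to the background, and the share called lower is below it. All JNJ libraries lay above all DMSO libraries in 22 members (27.2%; 24.7% of all genes) and below them in 4 (4.94%; 22.2% of all genes). The median log2 fold change was 0.05 over the members and 0.0014 over all genes. The quartiles were 0.01 and 0.13 for the members, and -0.20 and 0.22 for all genes. A change of at least 1.5-fold was seen in 0 of 81 members and in 14.5% of all genes. In all, 64 of the 81 members had a log2 fold change above 0 and 17 below 0, against 8725 and 8646 of all genes. This split depends on the scaling, since the member median was -0.0042 with upper-quartile scaling. Members also tended to move together between libraries, so their signs are not separate.

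The count of rises depended on the scaling and on single libraries. With upper-quartile scaling, 7 members were called higher (16.1% of all genes) and 5 lower (23.6% of all genes), and the member median was -0.0042. Fewer of the 81 were called higher in 4 of the 6 fits that left out a library. The count was 6 without DMSO replicate 1 (16.6% of all genes), 9 without DMSO replicate 2 (16.2%), 10 without JNJ replicate 2 (18.8%) and 11 without JNJ replicate 3 (16.9%). It was 18 without DMSO replicate 3 (16.9% of all genes) and 20 without JNJ replicate 1 (18.1%). The count of members called lower stayed at 2 or 3 in the fits that left out a library. RPL22, RPL26, RPL7, RPS13 and RPS15 were called higher, and RPL15 lower, in all 15 alternatives.

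**Figure D2:**
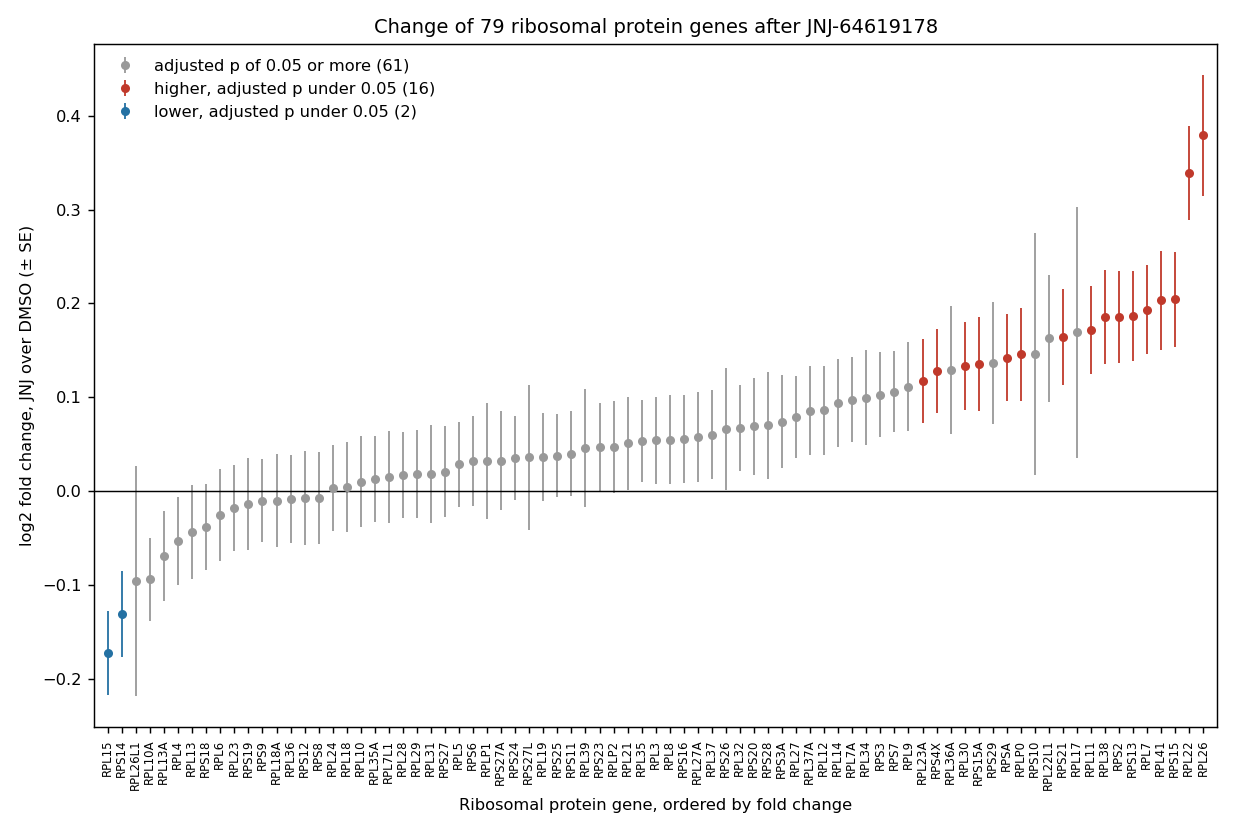
Log2 fold change, JNJ over DMSO, with its standard error (bars) for 79 of the 81 tested ribosomal protein genes in order of fold change, coloured by the edgeR call. Most points lie between 0 and 0.2. RPL26 and RPL22 stand at the upper end, and RPL15 and RPS14 stand at the lower end.

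In the large subunit, 9 of 49 tested members rose (18.4%, against 20.0% of all genes) and 1 fell (2.04%, against 17.1%). The median log2 fold change was 0.05. RPL26 and RPL22 had the largest rises of all members. RPL26, which sits near the exit of the peptide tunnel, was at 90.3, 94.2 and 101 CPM with DMSO and at 109, 139 and 123 CPM with JNJ. Every JNJ library lay above every DMSO library, with the 3 JNJ values spread more widely. The rise was 1.30-fold (log2 fold change 0.38, SE 0.06, edgeR adjusted p = 4.75e-05). In GENCODE release 29 (GRCh38), RPL26 (ENSG00000161970) spans 8377516 to 8383250 of chromosome 17. The gene AC135178.2, listed at 0, covers 14.3% of its exonic bases.

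RPL22, an RNA-binding protein on the outer face of the large subunit, was at 80.9, 87.9 and 86.9 CPM with DMSO and at 106, 114 and 104 CPM with JNJ. The groups did not overlap, and the rise was 1.265-fold (log2 fold change 0.34, SE 0.05, edgeR adjusted p = 7.82e-06). RPL22 (ENSG00000116251) spans 6185020 to 6209389 of chromosome 1.

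Other large-subunit rises were smaller. RPL41, one of the shortest human proteins, rose from 343 ± 28.2 to 395 ± 15.8 CPM (log2 fold change 0.20), but lost its call when DMSO replicate 1 was left out (adjusted p = 0.064). RPL7 rose from 401 ± 25.8 to 459 ± 3.84 CPM (0.19). RPL38, known in the mouse for its part in translating Hox messages, rose by 0.19 on the log2 scale (adjusted p = 0.00479). RPL11, which with RPL5 binds and blocks the ubiquitin ligase MDM2, rose by 0.17 (adjusted p = 0.00527), while RPL5 had a log2 fold change of 0.03 (adjusted p = 0.661). Leaving out DMSO replicate 1 ended both calls, at an adjusted p of 0.0513 for RPL38 and 0.0665 for RPL11. Upper-quartile scaling did so too, at 0.051 and 0.0612.

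RPL15, a protein needed for assembly of the large subunit, was the only large-subunit member called lower. Its level was 753, 753 and 808 CPM with DMSO and 677, 685 and 693 CPM with JNJ. All JNJ libraries lay below all DMSO libraries, and the fold, DMSO over JNJ, was 1.13 (log2 fold change -0.17, SE 0.04, edgeR adjusted p = 0.00378). RPL15 (ENSG00000174748) spans 23916545 to 23924374 of chromosome 3. RPL10A, at 519.7, 530.5 and 559.5 CPM with DMSO and 494, 507 and 507 CPM with JNJ, was also without overlap but did not pass (adjusted p = 0.103).

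In the small subunit, 8 of 32 members rose (25%, against 20.0% of all genes) and 2 fell (6.25%, against 17.1%). The median was 0.06. RPS15, which takes part in maturation and nuclear export of the subunit, was at 219, 209 and 224 CPM with DMSO and at 231, 256 and 266 CPM with JNJ. The groups did not overlap (log2 fold change 0.20, SE 0.05, edgeR adjusted p = 0.00238). RPS13 rose from 351 ± 21.1 to 399 ± 14.5 CPM (0.19). RPS2, the substrate of PRMT3, rose from 852 ± 55.9 to 969 ± 23.3 CPM (0.19), but its call ended when DMSO replicate 1 was left out (adjusted p = 0.057).

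RPS21 rose from 389 ± 6.37 to 436 ± 37.25 CPM (0.16, adjusted p = 0.014) and RPSA, also known as the laminin receptor precursor, from 387 ± 14.5 to 427 ± 19.25 CPM (0.14, adjusted p = 0.0182). Both calls were sensitive to single libraries. The RPS21 call ended on leaving out DMSO replicate 2 (adjusted p = 0.0858), its replicate 3 (0.0533) or JNJ replicate 2 (0.102). The RPSA call ended on leaving out DMSO replicate 1 (adjusted p = 0.0938), its replicate 2 (0.141), JNJ replicate 2 (0.0719) or its replicate 3 (0.0555). With upper-quartile scaling neither passed (0.119 and 0.172).

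RPS14, whose loss is known from a subtype of myelodysplastic syndrome, was at 708, 706 and 742 CPM with DMSO and at 622, 672 and 675 CPM with JNJ. All JNJ libraries were lower (log2 fold change -0.13, SE 0.05, edgeR adjusted p = 0.0284). This call was lost on leaving out DMSO replicate 2 (adjusted p = 0.0525), its replicate 3 (0.0625) or JNJ replicate 1 (0.137), and with library totals alone (0.0654).

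RPS10, the PRMT5 substrate, did not pass. It was at 5.80, 4.93 and 6.46 CPM with DMSO and at 6.79, 6.02 and 6.27 CPM with JNJ, and the groups overlapped (log2 fold change 0.15, SE 0.13, edgeR adjusted p = 0.408). These counts are low for the family. The readthrough gene RPS10-NUDT3 covers 39.4% of the exonic bases of RPS10 and is listed at 0, and pseudogene rows named for RPS10 held 220% of its own counts. The row for RPL17 has the same features, with RPL17-C18orf32 over 24.8% of its exonic bases and listed at 0, and pseudogene rows at 274% of its counts (log2 fold change 0.17, adjusted p = 0.348). Levels of both rows are uncertain, since reads could be shared, and the part of the overlap was not tested.

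**Figure D3:**
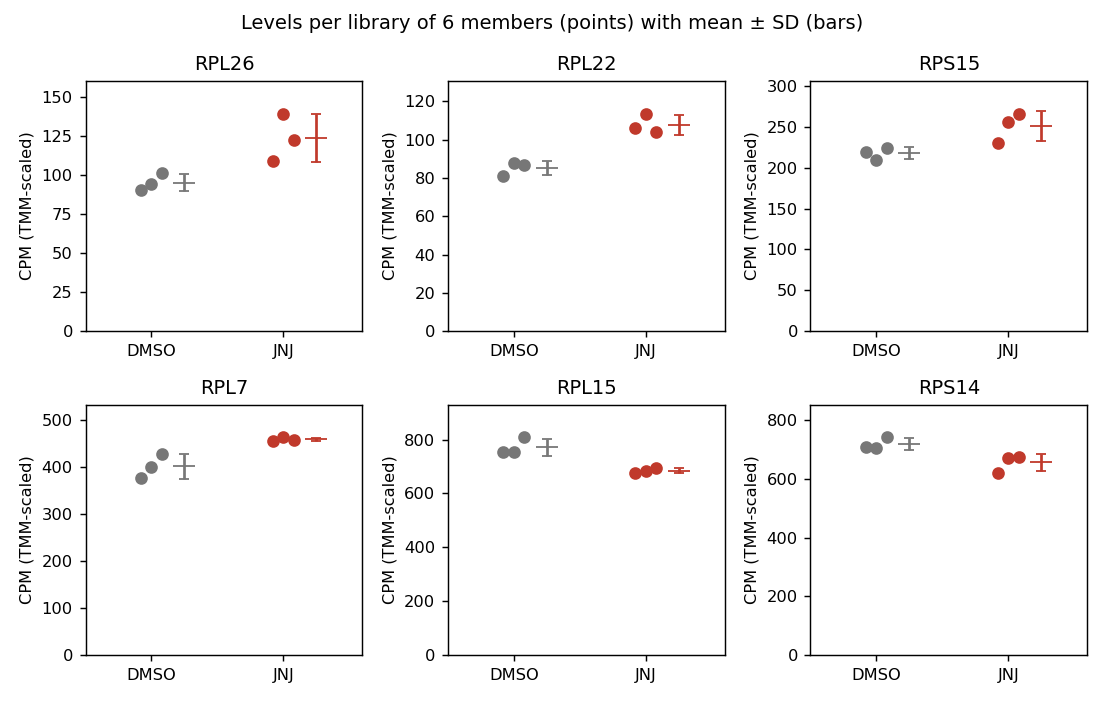
TMM-scaled CPM of 6 members in each library (points, DMSO grey, JNJ red), with mean ± SD as bars and axes from 0. RPL26, RPL22, RPS15 and RPL7 are higher in all 3 JNJ libraries, and RPL15 and RPS14 are lower in all 3.

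The acidic stalk that recruits elongation factors to the large subunit is built from RPLP0, RPLP1 and RPLP2. RPLP0, the base of the stalk, was at 1336, 1364 and 1500.2 CPM with DMSO and at 1513, 1591 and 1542 CPM with JNJ. The lowest JNJ library lay just above the highest DMSO library (log2 fold change 0.15, SE 0.05, edgeR adjusted p = 0.0234). This call was lost on leaving out DMSO replicate 1 (adjusted p = 0.167), its replicate 2 (0.152), JNJ replicate 2 (0.0656) or its replicate 3 (0.0585), and with upper-quartile scaling (0.183). RPLP1 (0.03, adjusted p = 0.721) and RPLP2 (0.05, adjusted p = 0.481) did not pass, and RPLP1 ranged from 712 to 911 CPM among the JNJ libraries.

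The members that drew the most reads did not pass the test. RPL10, which joins the large subunit late in its assembly, had 1752 ± 76.1 CPM with DMSO and 1764 ± 64.6 CPM with JNJ (log2 fold change 0.01). RPL8 had a log2 fold change of 0.05 and RPL3, which lies at the peptidyl transferase centre, one of 0.05 as well. RPS3, at the entry of the messenger channel, was at 1582 ± 35.1 and 1699 ± 36.2 CPM (0.10, edgeR adjusted p = 0.0795), and passed with DESeq2 (adjusted p = 0.0344) and with limma-voom (0.0288).

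A further 4 called members meet the rule that defines members but not the rule for which of them are named in the text. They were picked out after their values were seen. RPS15A (0.14), RPL30 (0.13), RPS4X (0.13) and RPL23A (0.12) rose, with adjusted p between 0.0272 and 0.0404. None of the 4 kept its call in all 15 alternatives, and RPS15A and RPL23A kept it in 6. RPL5, RPL10A and RPL17, given above without a call, also lie outside the rule for named members.

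A further feature outside the rule is that introns of ribosomal protein genes can hold snoRNAs, small RNAs that guide modification of ribosomal RNA. By GENCODE release 29, 28 members host at least 1, among them RPL13A with 4 and RPL3 with 3. Of the 28, 5 rose and 0 fell, against 20.0% and 17.1% of all genes. Of the 53 tested members without one, 12 rose and 3 fell. The medians were 0.06 and 0.05. At an unadjusted edgeR p under 0.05, 7 of the 28 hosts were higher and 0 lower, against 4124 and 3723 of all 17371 genes. DESeq2 called 6 higher and 0 lower, against 17.4% and 15.1% of all genes. With upper-quartile scaling 2 hosts were higher and 1 lower (16.1% and 23.6% of all genes), with a median of -0.0026. Without DMSO replicate 1 a single host was called higher (1 of 28, against 16.6% of all genes). Without DMSO replicate 2 or JNJ replicate 2 the count was 2 (16.2% and 18.8% of all genes). It was 6 without DMSO replicate 3 (16.9%), 5 without JNJ replicate 1 (18.1%) and 3 without JNJ replicate 3 (16.9%).

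The balance of large- to small-subunit messages did not differ beyond the replicate spread. The log2 ratio of summed CPM was 0.76, 0.78 and 0.77 in the DMSO libraries and 0.75, 0.75 and 0.77 in the JNJ libraries. The groups overlapped (difference -0.013, exact two-sided permutation p = 0.2, smallest possible 0.1). On the mean of log2 CPM per member the difference was 0.0098, so its sign depended on the summary.

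Paralogues were compared with their parents as a ratio within each library, in which the scaling of the library largely cancels. Of 8 pairs, 5 had both members past the count filter. In 4 of these 5 the ratio was lower in all JNJ libraries than in all DMSO libraries, each with an exact two-sided permutation p of 0.1, the smallest that the design allows, and an adjusted p of 0.125 over the 5 pairs. No pair could therefore pass a threshold of 0.05 by this test, whatever its size. Groups without overlap were common among single genes, at 24.7% of all genes for higher and 22.2% for lower. Such a share was not computed for ratios of other genes. The parents RPL26, RPL22 and RPL7 were themselves called higher, so their ratios are not separate from those rises.

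The pair RPL26L1 and RPL26 had the widest gap. The log2 ratio was -3.70, -3.67 and -3.61 with DMSO and -4.14, -4.11 and -4.16 with JNJ, a difference of -0.48. The parent rose, as given above. RPL26L1 itself was at 7.48 ± 0.707 and 6.98 ± 0.953 CPM (log2 fold change -0.10, SE 0.12, edgeR adjusted p = 0.58). Per kilobase of transcript, RPL26 stood at 180.4 CPM and RPL26L1 at 11.02 CPM with DMSO.

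For RPL22L1 over RPL22 the log2 ratio was -1.56, -1.75 and -1.49 with DMSO and -1.78, -1.79 and -1.75 with JNJ. DMSO replicate 2 lay almost level with the JNJ libraries, and the mean difference was -0.17. RPL22L1 was at 27.3, 26.2 and 30.8 CPM with DMSO and at 30.7, 32.8 and 30.8 CPM with JNJ. Its groups overlapped and it did not pass (log2 fold change 0.16, SE 0.07, edgeR adjusted p = 0.0604), though it did without DMSO replicate 3 (adjusted p = 0.0172). Both genes of this pair therefore had positive fold changes, and the parent had the larger one.

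RPL7L1, a nucleolar relative of RPL7, was at 92.3 ± 4.93 and 93.2 ± 2.58 CPM (0.02, edgeR adjusted p = 0.843). Its log2 ratio to RPL7 was -2.05, -2.18 and -2.13 with DMSO and -2.31, -2.27 and -2.32 with JNJ (difference -0.18). RPL36AL, a paralogue of RPL36A whose symbol falls outside the naming rule, was at 53.5 ± 1.30 and 51.6 ± 2.45 CPM (-0.05, adjusted p = 0.487). RPL36A was at 21.8 ± 0.396 and 23.8 ± 1.25 CPM (0.13, adjusted p = 0.143). The log2 ratio of RPL36AL to RPL36A was 1.28, 1.30 and 1.31 with DMSO and 1.16, 1.12 and 1.07 with JNJ (difference -0.18). RPL36A shares 8.4% of its exonic bases with the readthrough gene RPL36A-HNRNPH2, listed at 0, and its pseudogene rows held 66% of its counts, so this pair is less certain.

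RPS27L, a paralogue of RPS27, had a ratio to its parent that overlapped between the groups. The log2 ratio was -4.83, -4.60 and -4.74 with DMSO and -4.81, -4.72 and -4.61 with JNJ (difference 0.01, exact permutation p = 0.8). RPS27L (0.04, edgeR adjusted p = 0.751) and RPS27 (0.02, adjusted p = 0.769) did not pass.

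The other 3 paralogues, known for expression in testis or muscle, were at or near 0. RPL39L had 0, 2 and 4 counts with DMSO and 0, 1 and 1 with JNJ. RPL10L had 4 counts, all in DMSO replicate 2, and RPL3L had 1 count in each of DMSO replicates 1 and 2. A library with a count of 0 allows a level of up to 0.0964 to 0.127 CPM (3 counts, counting error only). The parent RPL39 was at 69.1 ± 5.66 and 71.3 ± 6.29 CPM (0.05, edgeR adjusted p = 0.604).

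**Figure D4:**
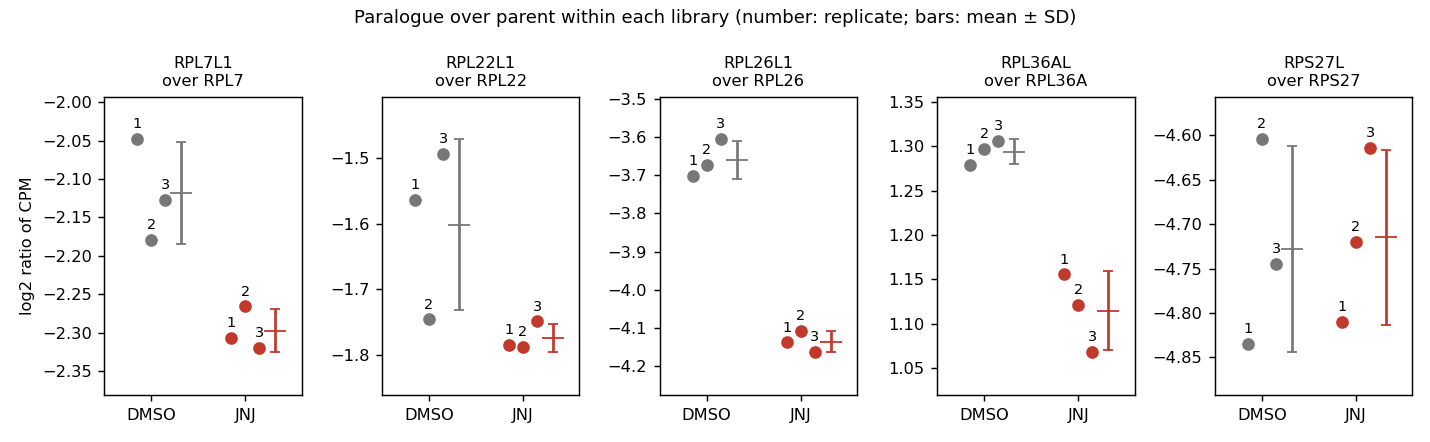
Log2 ratio of the CPM of a paralogue to that of its parent in each library, for the 5 pairs that passed the count filter (points numbered by replicate, DMSO grey, JNJ red, bars mean ± SD). Each panel has its own vertical axis, which does not start at 0. The groups are apart in the first 4 panels, though only just for RPL22L1 over RPL22. The gap is widest for RPL26L1 over RPL26, and the groups overlap for RPS27L over RPS27.

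FAU, which encodes a small-subunit protein fused to a ubiquitin-like protein, did not pass (log2 fold change 0.07, edgeR adjusted p = 0.346), but did without JNJ replicate 1 (0.14, adjusted p = 0.0225). Other genes known for TOP messages, mostly translation factors, were a list of 18, of which 17 were tested. Of these, 6 rose (35.3%, against 20.0% of all genes) and 1 fell (5.88%, against 17.1%), with a median of 0.09. Upper-quartile scaling called 4 higher (16.1% of all genes) and 1 lower (23.6%), with a median of 0.03. In the fits that left out a library, 4 to 8 were called higher, against 16.2% to 18.8% of all genes. EIF3E, a subunit of the initiation factor that binds the small subunit, rose from 254 ± 17.3 to 325 ± 18.1 CPM (0.35). RACK1, a scaffold protein of the small subunit, rose from 1256 ± 48.2 to 1459 ± 26.5 CPM (0.22, adjusted p = 6.00e-04). EEF1A2, the tissue-restricted form of the elongation factor that delivers transfer RNA, rose from 49.3 ± 2.02 to 76.5 ± 2.23 CPM (0.63). HNRNPA1, a splicing factor, fell from 420.1 ± 4.565 to 342 ± 8.84 CPM (-0.30). EEF1G, the untested gene, is listed at 0 in all libraries.

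Among 16 chaperones and modifying enzymes of ribosomal proteins, 3 rose (18.8%, against 20.0% of all genes) and 1 fell (6.25%, against 17.1%), with a median of -0.03. Upper-quartile scaling called 1 higher (16.1% of all genes) and 4 lower (23.6%), with a median of -0.09. RIOX2, a hydroxylase of RPL27A, rose from 39.0 ± 2.89 to 46.5 ± 2.08 CPM (0.25, edgeR adjusted p = 0.00165). AAMP, the relative of the yeast chaperone of RPL10, rose by 0.16 on the log2 scale, a call that ended on leaving out DMSO replicate 2 (adjusted p = 0.0561) and under upper-quartile scaling (0.0886). GRWD1, the chaperone of RPL3, rose by 0.16 (adjusted p = 0.0451) but did not pass in 9 of 15 alternatives. Over all 15 its adjusted p ran from 0.0305 to 0.27. Among the 9 were the fits that left out DMSO replicate 2 (0.27), its replicate 3 (0.0989), JNJ replicate 2 (0.0895) or its replicate 3 (0.141). BCCIP, a partner of RPL23 in yeast and human cells, fell from 55.0 ± 1.78 to 48.1 ± 1.69 CPM (-0.19).

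A list of 11 genes was drawn up for mTORC1 signalling and TOP messages, and not all of its genes are known to bind such messages. Of these 11, 3 rose with edgeR (27.3%, against 20.0% of all genes). The number that fell was 0 (17.1% of all genes). At an unadjusted edgeR p under 0.05, 3 were higher and 1 lower, against 4124 and 3723 of all 17371 genes. DESeq2 also called 3 higher (17.4% of all genes) and 0 lower (15.1%). Upper-quartile scaling gave 3 (16.1%) and 2 (23.6%). RPS6KB1 and RPS6KB2, the kinases that phosphorylate RPS6, rose from 55.4 ± 1.93 to 81.6 ± 5.23 CPM (0.56) and from 60.7 ± 0.780 to 75.3 ± 3.63 CPM (0.31). LARP4B, an RNA-binding protein of the La-related family, rose from 81.6 ± 0.638 to 106 ± 4.87 CPM (0.38). EIF4EBP1, a repressor of cap-dependent translation, was at 98.7 ± 3.35 and 90.2 ± 6.31 CPM (-0.13, adjusted p = 0.054), and passed in 5 of 15 alternatives, among them the fit without JNJ replicate 2 (0.00506). MTOR (0.05), RPTOR (0.0086) and LARP1 (-0.01) did not pass.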

How the data were processed

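RNA of 6 HuCCT-1 libraries was analysed from 1 table of raw read counts per gene that the authors deposited. The library kit keeps strand, per the labels' protocols. The submitters' processing notes list edgeR, limma, STAR 2.7.9a, featureCounts 1.6.0 and FastQC 0.11.8 without saying what each did. They also list GRCm39, a mouse build, although every identifier in the table is human. Annotation, strand setting in counting and treatment of multiply mapped reads: not given in the sources used here. Near-identical copies, pseudogenes and overlapping genes could thus share reads.

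Of 60649 rows, 44 repeated identifiers with no counts were dropped, and 60463 of 60605 genes matched a symbol. Positions and types came from GENCODE release 29 (GRCh38), start sequences from RefSeq. Lengths are those of the shortest principal transcript. Genes were filtered with filterByExpr (minimum count 10, total 15), which left 17371, scaled by TMM and compared across the whole table with edgeR 4.0.16 (glmQLFit, glmQLFTest, Benjamini-Hochberg, threshold 0.05). Single values per library were compared by exact permutation. The script was tested on simulated counts. Alternatives used DESeq2 1.42.0, limma 3.58.1 (voom), other scalings and filters, a replicate block and each library left out. Paralogue ratios used log2 CPM with a prior count of 2.

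Members named are all paralogue pairs, other called members without overlap (up to 8 by fold in each direction), the 4 with most reads, the stalk genes, RPSA, RPS10 and RPS2, and the 4 smallest p-values in each list. Some genes that the rule names are not reported here, though counts over the members include them. Members and lists were chosen with earlier results of these data known.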

Additional observations from a re-analysis of the deposited data

How the results depend on the processing

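Scaling moved the balance most. With upper-quartile scaling the median over all genes was -0.06, and the member median turned to -0.0042. In that fit 7 members were called higher (16.1% of all genes) and 5 lower (23.6% of all genes). The log2 fold changes of RPL3 (-0.0042), RPL10 (-0.048), RPL39 (-0.012), RPS27 (-0.037), RPL7L1 (-0.043), RPS27L (-0.022), RPL8 (-0.0036), RPLP1 (-0.025) and RPLP2 (-0.011) changed sign there, none of them past the threshold in either fit, and so did RPL10 with no filter on low counts (-0.0011). Over the fits without 1 library, members called higher ranged from 6 to 20, and log2 fold changes from -0.021 to 0.041 for RPL10, -0.016 to 0.115 for RPL39, -0.020 to 0.0496 for RPS27, -0.023 to 0.048 for RPL7L1, -0.038 to 0.106 for RPS27L and -0.0498 to 0.125 for RPLP1. The large over small subunit difference was 0.0098 on the mean of log2 CPM. The cause was not tested. Deviations of same-numbered libraries from their group means had correlations of -0.0184, -0.0144 and 0.0019 over all genes tested. Differently numbered libraries had values from -0.0324 to 0.0461. With 3 libraries a group, these values cannot decide whether equal numbers mark a pair. With the replicate block 12 of the 81 members were higher and 2 lower, against 3311 and 2821 of all 17371 genes. RPLP0 (adjusted p = 0.0552) and RPS14 (0.0599) did not pass in that fit. DESeq2 called 17 members higher and 4 lower, against 3019 and 2627 of all 17371 genes. The member counts with limma-voom were 20 and 3, against 3464 and 2978 of all genes. TMM without ribosomal protein genes gave 17 and 3, against 3485 and 2964. With 3 libraries a group, members under 10 CPM had standard errors of 0.12 to 0.13, against a median of 0.05 over all tested members.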

Other observations

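Pseudogene rows that carry a ribosomal protein name were left out of the members. Of 1599 such rows, 199 passed the count filter. By edgeR 6 of these rose and 6 fell, 3.02% each against 20.0% and 17.1% of all genes, with a median log2 fold change of 0.10. Many of the rows had low counts, and the part of this in the number of calls was not tested. A CPM above 1 in 3 libraries was reached by 114 rows. With that filter 7 of the 114 were called higher and 4 lower, against 3348 and 2893 of 14548 genes. Changes of at least 1.5-fold made up 10.1%, against 14.5% of all genes. All 1599 rows together took 0.0726% ± 7.88e-04 of the counts with DMSO and 0.0747% ± 0.0020 with JNJ (SD, n = 3 each). The highest share relative to the named parent was for RPL17, RPS10 and RPL36A, and RPS28 (31.9%) and RPS3A (10.8%) followed. Reads from such copies and from their parents may be shared.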
